A study of Saccharomyces cerevisiae with 4 samples.

Results

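The transcripts described here come from 10 genes that build the prospore membrane, the membrane that grows around each meiotic nucleus and becomes the plasma membrane of the spore. They were chosen by locus name in the deposited counts: YOL091W (SPO21), YOR177C (MPC54), YGL170C (SPO74), YLR227C (ADY4), YDL239C (ADY3), YHR184W (SSP1), YDR273W (DON1), YPL027W (SMA1), YML066C (SMA2) and YMR017W (SPO20). All 10 are listed among the 7132 features of the table, and all 10 passed the filter on low counts. SSP1 passed it through its libraries of the repeat experiment alone.

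In meiosis II the cytoplasmic face of the spindle pole body, the microtubule organizing center of yeast, is remodeled into the meiotic outer plaque. Spo21, Mpc54 and Spo74 are structural components of this plaque, and Ady4 stabilizes it. Secretory vesicles dock there and fuse into a membrane, and this fusion uses Spo20, the sporulation-specific relative of the SNARE protein Sec9. The rim of the growing membrane carries the leading edge coat, made of Ssp1, Ady3 and Don1, while Sma1 and Sma2 are needed for the membrane to assemble. These genes are transcribed in the middle of sporulation under the activator Ndt80, and the mature spore has completed the work of their products.

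The spores came from a single SK1-background diploid strain in which the CUP1 promoter drives Ime1, the inducer of meiosis, on both chromosomes. In all libraries sporulation was started with copper, and spores were freed from the ascus and sorted after 7 days. The a spores are the red spores, which inherit the MATa allele with mCherry under the GPD1 promoter and a hygromycin resistance gene (hph) inserted. The α spores are those without red fluorescence. Sporulation and sorting were carried out on separate occasions for replicate 1 and replicate 2, called run 1 and run 2 below, so each run gave 1 library of a spores and 1 of α spores. Spore type was taken from color. The strain field of the samples instead reads MATalpha for both red samples and for the non-red sample of run 2, and MATa for the non-red sample of run 1.

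The deposited counts of the 4 libraries summed to between 25493760 and 45697828 reads assigned to features. The sort was visible in hph, with 67902 (run 2) and 71566 (run 1) reads in a spores, against 972 and 4348 in α spores. The mCherry sequence had 14452 and 7814 reads in a spores, against 0 and 552 in α spores, so the α library of run 1 was not free of it. Separate sporulation runs differed far more than the spore types did, as given below. In RNA from pooled spores, fewer spores with a transcript and less of the transcript per spore cannot be told apart.

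The genes share a sequence feature that was not used to choose them, though genes known to be under Ndt80 are likely to carry it. The middle sporulation element, to which Ndt80 binds, has the core CACAAA, and this core was searched on both strands of the 300 bases before each start codon in R64. It was found before 10 of 10 start codons, against 1146 of 5988 protein-coding genes in the table (19.1%). With a longer form, which overlaps the core (CACAAA or CGCAAA, followed by A or T), the share was 9 of 10 against 19.9%, and the exception was SPO20. ADY3 counted through 2 CGCAAAA matches, which are not shown, since its CACAAA core is followed by G. Among 13 matches to the core, 8 lay on the strand of the gene and 5 on the other. A match is a description of letters and was not tested as a binding site. The match nearest to the start codon is shown for 9 of the genes to let the flanks be compared, 5′ to 3′ on the strand of the gene, with the core (or its reverse complement, TTTGTG) in capitals.
SPO21 (chrXV:145206-145235): tttttttaatgtCACAAAaagaaaaattaa
MPC54 (chrXV:667392-667421): gccccaatatttTTTGTGtacgtaagccca
SPO74 (chrVII:185497-185526): tcaatgttctctTTTGTGtcacaagaaata
ADY4 (chrXII:592049-592078): attgatcatagtCACAAAttgtcggctcac
ADY3 (chrIV:28844-28873): taagattaggaaCACAAAgagatttgccag
SSP1 (chrVIII:472637-472666): gcaaacaggcgaCACAAAatcatgaagtca
SMA1 (chrXVI:499486-499515): taattactgacaTTTGTGgtattaactcgt
SMA2 (chrXIII:141679-141708): ggagaacattttTTTGTGtcatcttagggg
SPO20 (chrXIII:307449-307478): tagatttttccgTTTGTGaatagccatttt

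The nearest match of ADY4 ended 17 bases before the start codon and that of SPO20 22 bases before it. In the other 8 genes the distance ran from 80 bases (ADY3) to 224 bases (MPC54). ADY4 had further matches at 213 and 274 bases and SPO21 at 158 bases. Among the lists used for comparison, the core was found for 11 of 15 other prospore membrane genes and 10 of 14 middle sporulation genes, lists that share 6 genes. It was found for 7 of 18 spindle pole body genes that also serve in mitosis, for 1 of 9 early meiotic genes and for 0 of 3 late sporulation genes.

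**Figure D1:**
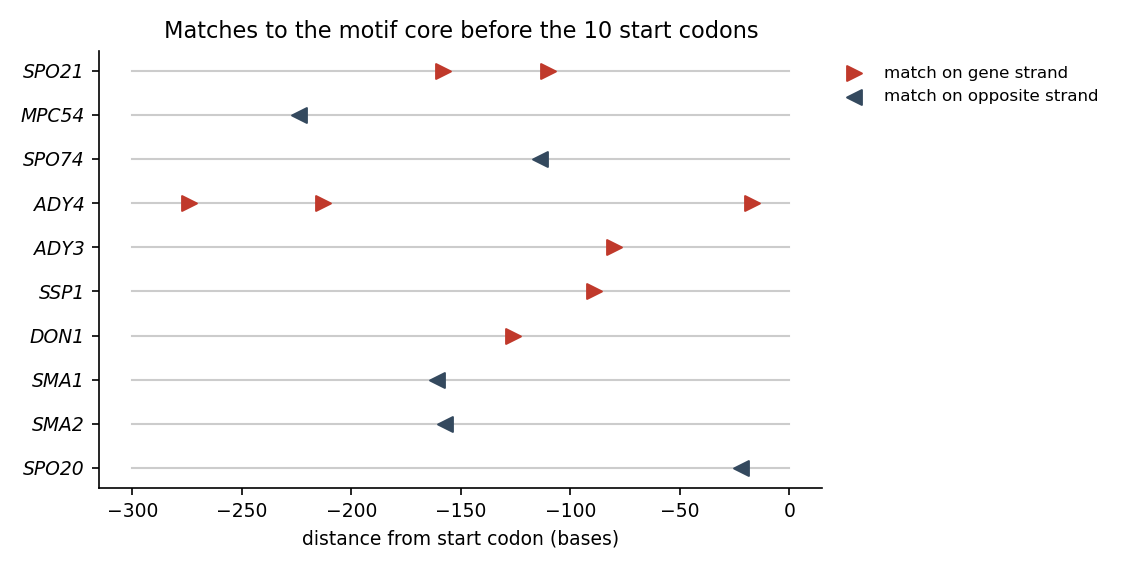
Position of each CACAAA core before the start codons of the 10 genes, as the distance in bases between the motif and the start codon. Each line is the 300 bases searched, arrowheads give the strand, and all 10 lines carry at least 1 match.

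All 10 genes are free of introns, none overlaps another gene in the R64 annotation, and 0.0% of the 50-base words of each occur elsewhere in the genome. Of their 40 deposited values 22 were fractional, and the source of the fractions was not given in the sources used here. Levels between genes were compared as reads per kilobase of coding length per 1000000 normalized reads (RPKM), and libraries within a gene as normalized reads per 1000000 (CPM). By mean RPKM over the 4 libraries, 9 of the 10 transcripts lay below the median coding gene, which had between 68.2 and 70.5 RPKM in each library. In a spores of run 1 alone, SMA2 (86.1 RPKM) and SPO20 (97.3 RPKM) were above that level. By its mean, DON1 was the exception. It had 96.8 (run 2) and 74.3 (run 1) RPKM in a spores, against 138.0 and 98.8 in α spores, and its mean of 102.0 ± 26.5 RPKM (SD, n = 4 libraries) was above that of 66.1% of coding genes.

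Below DON1 the order was not firm. SMA2 averaged 55.1 ± 23.5 RPKM and SPO20 55.1 ± 32.0 (SD, n = 4 libraries each). MPC54 followed with 40.5 ± 8.31, SMA1 with 35.7 ± 7.07, ADY3 with 29.1 ± 20.8 and ADY4 with 24.3 ± 2.28 RPKM. SPO21 averaged 15.7 ± 11.3 and SPO74 9.80 ± 6.02 RPKM. For 4 of the transcripts with wide SDs the libraries of the runs did not overlap, as for 61.9% of all genes. SPO21 had 30.4 RPKM in a spores and 18.7 in α spores of run 2, against 6.45 and 7.29 in run 1. ADY3 had 51.5 and 41.7 RPKM in run 2, against 14.6 and 8.45 in run 1. Both were thus higher in the 2 libraries of run 2. SMA2 was lower there, with 31.3 and 44.5 RPKM in run 2, against 86.1 and 58.6 in run 1. SPO20 was likewise lower, with 21.4 and 43.4 RPKM in run 2, against 97.3 and 58.2 in run 1. For SMA2 and SPO20 the gap between spore types in run 1 was larger than that between runs in α spores. Neighbors in this order exchanged places in at least 1 library in every case but the last: SSP1 was lowest in 4 of 4 libraries. SPO20 had the highest level of the 10 in a spores of run 1 and ranked 7 in a spores of run 2. ADY4 was the steadiest, with a highest library 1.23 times the lowest, and ADY3 the least steady of the 9 transcripts with reads in every library, at 6.10 times.

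SSP1 (chromosome VIII, 472744 to 474459) stood apart from the rest. Its product caps the mouth of the growing membrane and must be removed for the membrane to close. The deposited values were 180.39 reads in a spores and 96.0 in α spores of run 2, against 0.1 and 0.22 in run 1. These are 3.74 and 2.17 RPKM in run 2, while both run 1 libraries were under the floor of 3 reads used for detection. PFS1, the convergent neighbor 167 bases downstream that also acts in prospore membrane formation, was under 3 reads in all 4 libraries.

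**Figure D2:**
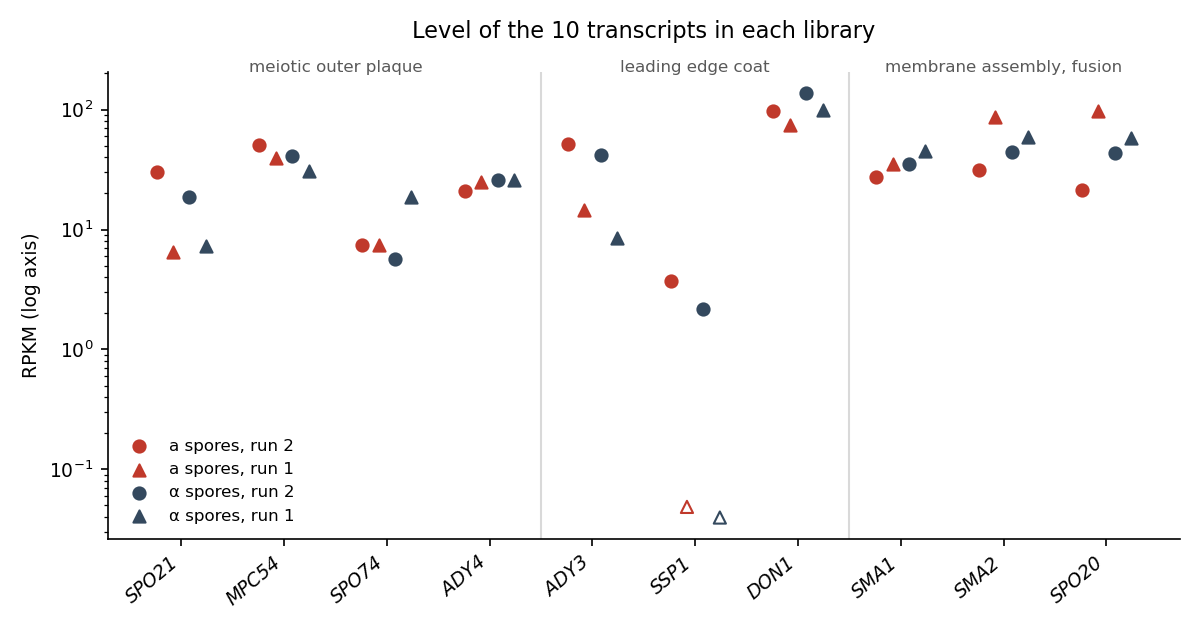
Level of each transcript in RPKM (log axis) in a spores and α spores of run 2 (circles) and run 1 (triangles). Open symbols mark SSP1 in run 1, which was under 3 reads and is drawn at the level of 3 reads. DON1 lies highest in 3 of 4 libraries and SSP1 lowest in all 4.

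Levels were next compared between spores of opposite mating type, since a transcript made before the membrane closes could reach every spore. No difference was called for any of the 10 transcripts. In edgeR's likelihood ratio test with the run as a block, 0 of 10 passed the threshold of 0.05 on the Benjamini-Hochberg adjusted p (FDR), and 0 had an unadjusted p under 0.05. The quasi-likelihood test of edgeR and DESeq2 also called 0. Over all 6140 genes tested the share called was 0.0163% in the likelihood ratio test and 3.62% in DESeq2. The former is 1 gene, so at least 1 of hph and mCherry, the markers of the sort, was not called. The common coefficient of variation that edgeR estimated between libraries was 0.518. A missing call therefore does not show equal levels. Fitted log2 fold changes of a over α spores ran from -0.47 (SPO74) to 0.55 (ADY3) among the 9 transcripts with reads in every library. The median of the 10 was -0.06, against 0.02 over all genes, with 5 transcripts on each side of 0.

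Among the plaque components, MPC54 (chromosome XV, 665785 to 667179) had 71.1 CPM (run 2) and 55.1 CPM (run 1) in a spores, against 56.8 and 42.8 CPM in α spores. Its log2 ratio was 0.32 and 0.37 in the runs. The difference was larger than the spread of these ratios (SD 0.04), but not called (log2 fold change 0.34, FDR 1.0, edgeR's likelihood ratio test). ADY4 (chromosome XII, 590562 to 592043) had 31.0 and 36.6 CPM in a spores, against 38.2 and 38.1 CPM in α spores. All 4 values of ADY4 lay close together, with the a spores a little lower. SPO21 (chromosome XV, 145334 to 147163) had a log2 ratio of 0.70 in run 2 and -0.18 in run 1. SPO74 (chromosome VII, 184153 to 185394), the scarcest plaque transcript, had 9.21 and 9.17 CPM in a spores, against 7.01 and 23.3 CPM in α spores. The α library of run 1 was thus high for SPO74, and the a values lay between both α values.

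In the leading edge coat, DON1 (chromosome IV, 1010176 to 1011273) had 106.0 and 81.5 CPM in a spores, against 152.0 and 109.0 CPM in α spores. Within each run the a spores were lower, with log2 ratios of -0.51 and -0.41 (SD 0.07). The fitted change was -0.46, with FDR = 1.0 by likelihood ratio in edgeR. DESeq2 gave 0.107, the smallest FDR that any of the 10 reached across the alternatives. ADY3 (chromosome IV, 26403 to 28775), whose product is needed to bring Don1 to the rim, went the other way, with log2 ratios of 0.31 in run 2 and 0.79 in run 1. SSP1 could be compared in run 2 alone, where its log2 ratio was 0.78.

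Among the membrane genes, SMA1 (chromosome XVI, 499665 to 500402) had 20.4 and 26.0 CPM in a spores, against 25.9 and 33.1 CPM in α spores. Its log2 ratio was -0.35 in both runs. SMA2 (chromosome XIII, 140424 to 141533) and SPO20 (chromosome XIII, 307489 to 308682) changed sides between runs. The log2 ratio of SMA2 was -0.51 in run 2 and 0.55 in run 1, and that of SPO20 was -1.02 and 0.74. The fitted changes of 0.02 and -0.14 were smaller than the spreads of these ratios (SD 0.75 and 1.24). Libraries of a and α spores did not overlap for 2 of the 10 transcripts, DON1 and ADY4, against 19.2% of all genes.

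**Figure D3:**
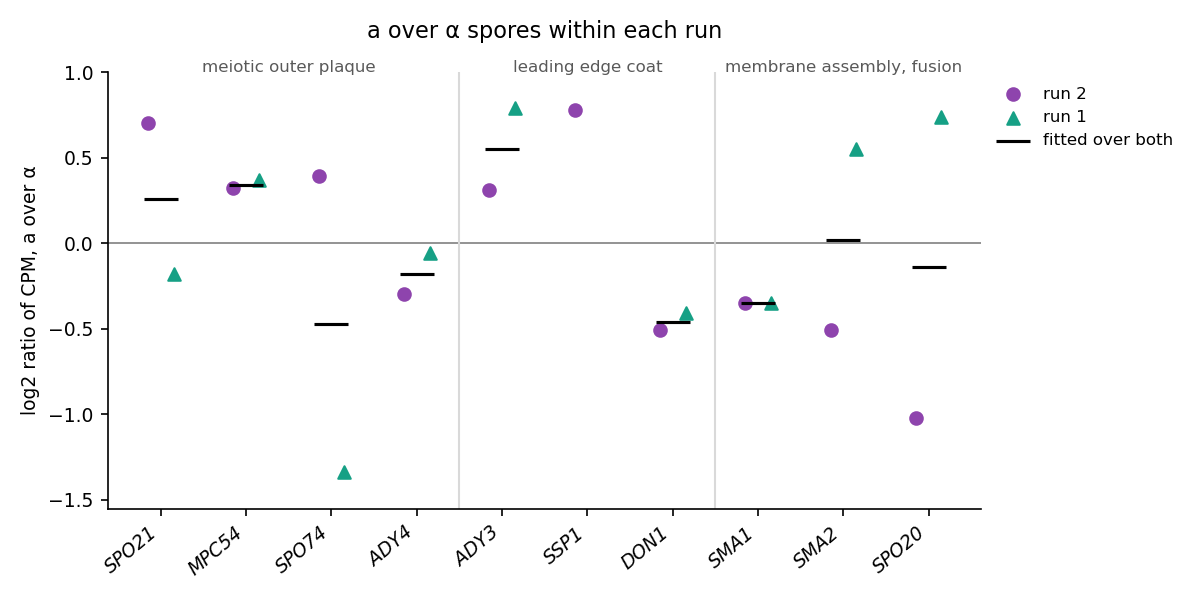
Log2 ratio of normalized CPM of a over α spores for each transcript in run 2 (circles) and run 1 (triangles), with the fitted value over both as a bar. SSP1 has a point for run 2 alone and no bar. Ratios lie between -1.34 and 0.79, and those of SPO21, SPO74, SMA2 and SPO20 lie on opposite sides of 0.

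The same model gives the difference between run 2 and run 1 with mating type as a block. Sporulation and sorting were repeated together, and whether RNA and libraries of both runs were prepared together is not given. These steps cannot be told apart in this comparison. ADY3, SPO21 and SSP1 were called higher in run 2 and none was called lower. SSP1 passed the filter on low counts through run 2 alone, so with its run 1 values it could be tested only if higher in run 2. Without it, which was looked at after the data were seen, 2 of 9 transcripts were called, ADY3 and SPO21. Of all 6140 genes 26.1% were called in this comparison, and 12.2% were higher in run 2, so the share of called transcripts is not a result about them. Libraries of the runs did not overlap for 7 of 10 transcripts, against 61.9% of all genes. The median log2 fold change of the 10 was 0.14, against -0.02 over all genes.

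ADY3 showed the clearest difference. It had 122.0 CPM in a spores and 98.9 CPM in α spores of run 2, against 34.7 and 20.0 CPM in run 1. Both libraries of run 2 were thus above both of run 1, whichever the spore type. The change was 4.17-fold (log2 fold change 2.06, SD of the ratios within each spore type 0.34, FDR = 1.62e-05, edgeR's likelihood ratio test). It remained past the threshold in all 12 alternatives, with an FDR of 0.00631 in the quasi-likelihood test and 8.4e-14 in DESeq2. The prior count of 2 cannot change the FDR, so that alternative is no check. With 1 library left out, the log2 fold change ran from 1.66 to 2.43.

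SPO21 had 55.7 CPM in a spores and 34.3 CPM in α spores of run 2, against 11.8 and 13.3 CPM in run 1, a 3.48-fold change. Its log2 fold change was 1.80 (SD of the ratios 0.62, FDR = 0.0448, edgeR's likelihood ratio test). The call was lost in the quasi-likelihood test (FDR = 0.102). It was also lost without a spores of run 1 (FDR = 0.160), without a spores of run 2 (FDR = 0.184) and without α spores of run 1 (FDR = 0.143), in edgeR fits with no mating-type term. For SSP1, the floor of 3 reads per library makes the run 2 level at least 77.0-fold higher in a spores and at least 54.8-fold higher in α spores, for counting error only. Its FDR was 0.00562 in the likelihood ratio test and 0.243 in the quasi-likelihood test. The likelihood ratio call was also lost without a spores of run 1 and without α spores of run 1. SSP1 passed the filter through run 2 alone and could be called only if higher there, so its call is no support for the difference. Of the 7132 features, 12 were like SSP1 in having under 3 reads in both run 1 libraries and at least 96 in both of run 2, and 30 had the opposite pattern.

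The membrane genes lay lower in run 2 but did not pass the threshold. SPO20 had 25.5 CPM in a spores and 51.9 CPM in α spores of run 2, against 116.0 and 69.4 CPM in run 1. The a spores moved more than the α spores, with log2 ratios of -2.19 and -0.42. The fitted change was -1.30 (FDR = 0.0526 in edgeR's likelihood ratio test and 0.11 in its quasi-likelihood test). With 1 library left out, in fits with no mating-type term, the log2 fold change ran from -1.86 to -0.84. SMA2 had 34.7 and 49.4 CPM in run 2, against 95.6 and 65.1 CPM in run 1 (log2 fold change -0.93, FDR = 0.143, edgeR). SMA1 had log2 ratios of -0.35 in both spore types (FDR = 0.780, edgeR). Among the rest, MPC54 (0.39) and DON1 (0.43) had positive log2 fold changes and ADY4 (-0.12) and SPO74 (-0.86) negative ones, with FDR values of 0.355 or more in edgeR's likelihood ratio test. The ratio of SPO74 rested on α spores (-1.73), since a spores differed by 0.01.

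The number called depended on the tool. The quasi-likelihood test called 1 of the 10, ADY3, and 18.8% of all genes. DESeq2 called 6 of the 10 and 44.1% of all genes, adding DON1, SMA2 and SPO20.

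**Figure D4:**
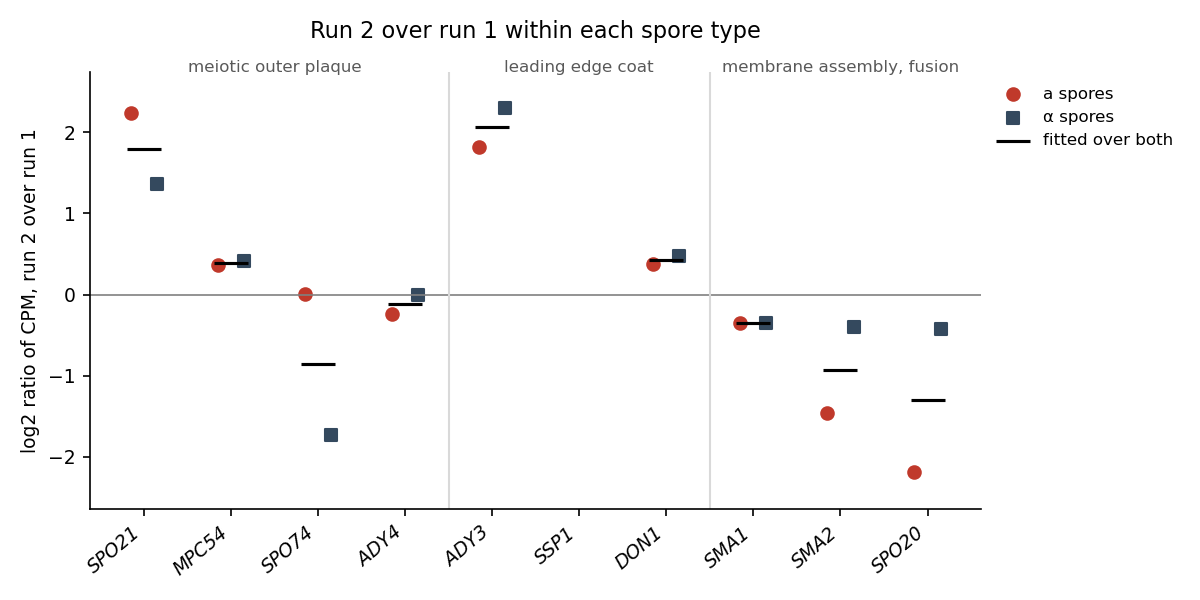
Log2 ratio of normalized CPM of run 2 over run 1 for each transcript within a spores (circles) and α spores (squares), with the fitted value as a bar. SSP1 is not drawn, since its run 1 libraries were under 3 reads. ADY3 and SPO21 lie above 1 in both spore types, and SPO20 lies at -2.19 in a spores and -0.42 in α spores.

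In edgeR's likelihood ratio test, lists of stage and cell markers held few calls between runs. Each list had a smaller share there than the 26.1% of all genes. For the early meiotic genes this did not hold in the other tests. The quasi-likelihood test called 2 of 9, against 18.8% of all genes, and DESeq2 called 4 of 9, against 44.1%. Among 9 early meiotic genes, 2 were lower in run 2, namely IME2, the meiotic kinase (log2 fold change -1.80, FDR = 7.05e-05), and RED1, a chromosome axis gene (-1.54, FDR = 0.000999, edgeR's likelihood ratio test). The summed level of the 9 was 569.0 CPM in a spores and 472.0 CPM in α spores of run 2, against 783.0 and 706.0 CPM in run 1. Of these 9, SPO11 and SPO13 were under 3 reads in α spores of run 2. Among 14 other middle sporulation genes, 1 was called, GIP1, which was higher in run 2. GIP1 is also 1 of the 6 genes shared with the list of further prospore membrane genes. The 14 summed to 446.0 and 398.0 CPM in run 2, against 360.0 and 352.0 CPM in run 1. Without GIP1, a sum made after its values were seen, the order turned round, with 276.0 and 281.0 CPM in run 2 against 320.0 and 311.0 CPM in run 1. Of 3 late sporulation genes, 0 were called by edgeR's likelihood ratio test, 0 had an unadjusted p under 0.05, and DESeq2 called 1, with sums of 2800.0 and 3270.0 CPM in run 2 against 2180.0 and 2330.0 CPM in run 1, nearly all of it the spore wall gene SPS100. Of 9 daughter cell separation genes, markers of budding cells, none was under 3 reads in any library. Their sums were 786.0 and 627.0 CPM in run 2, against 770.0 and 816.0 CPM in run 1, with 1 call, PRY3 (log2 fold change -0.88, FDR = 0.0333, edgeR). The part of these markers in the run differences of ADY3, SPO21 and SSP1 was not tested.

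Other genes of the same structures were read from lists. Of 15 further prospore membrane genes, 14 passed the filter, and DESeq2 called 5 of these between runs, against 44.1% of all genes. The likelihood ratio test of edgeR called 1, against 26.1% of all genes, and it was higher in run 2. This was GIP1, which encodes a sporulation-specific partner of protein phosphatase 1, at 88.2 RPKM in a spores and 61.2 RPKM in α spores of run 2, against 20.5 and 21.5 RPKM in run 1 (log2 fold change 1.81, FDR = 1.23e-05, edgeR). The list ran in mean level from PFS1, under 3 reads, to SPO73 at 136.0 RPKM. YSW1, another prospore membrane gene, averaged 15.6 RPKM, and SPO21 exceeded it in 2 of 4 libraries, both of run 2. Between a and α spores, 0 of the 14 tested were called by either edgeR test, with 1 at an unadjusted p under 0.05. DESeq2 called 2 of the 14, SPO73 (FDR = 0.0253) and SPO14 (FDR = 0.0475), both named for that call after it was seen.

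Of 18 spindle pole body genes that also serve in mitosis, 0 were called in either comparison by edgeR's likelihood ratio or quasi-likelihood test. The number at an unadjusted p under 0.05 was 0 between a and α spores and 1 between runs, and DESeq2 called 0 and 3. Their mean levels ran from 17.1 RPKM (SPC97) to 373.0 RPKM (CMD1, calmodulin). MPC54 exceeded SPC72, which encodes the mitotic receptor of the γ-tubulin complex that the meiotic plaque replaces, in 4 of 4 libraries, by 1.57 to 1.69 times. NUD1, an outer plaque scaffold used in both divisions, averaged 76.9 RPKM. CNM67, the plaque anchor and paralog of ADY3, averaged 48.5 RPKM and exceeded ADY3 in 4 of 4 libraries.

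Set beside 5 genes for SNARE partners and vegetative counterparts, SPO20 was the scarcest transcript. SEC9, its vegetative counterpart, averaged 122.0 RPKM, and SPO20 was at 0.220 (run 2) and 0.833 (run 1) times its level in a spores and at 0.303 and 0.452 times in α spores. SSO1, the syntaxin that acts with Spo20, averaged 287.0 RPKM, and SNC2, a vesicle SNARE, 581.0 RPKM. SNC1 was the single call of this list between runs, with 431.0 and 598.0 RPKM in run 2, against 201.0 and 236.0 RPKM in run 1 (log2 fold change 1.22, FDR = 0.000632, edgeR).

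**Figure D5:**
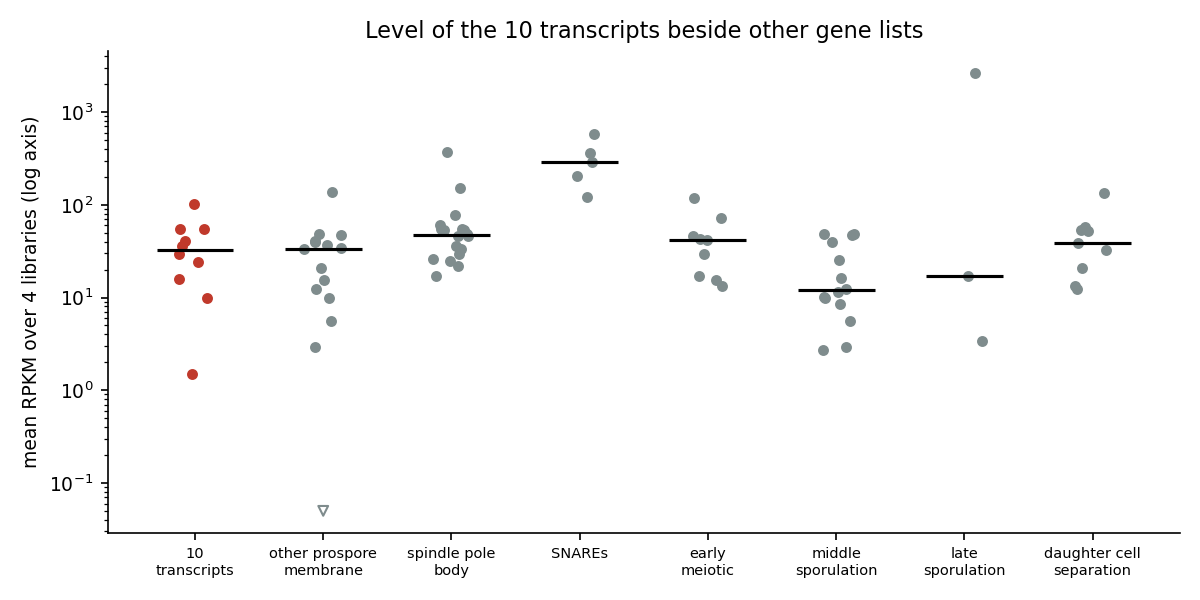
Mean RPKM over the 4 libraries (log axis) of the 10 transcripts and of the genes of 7 other lists, with the median of each list as a bar. An open triangle marks PFS1, drawn at 0.05 RPKM. The 10 have a median of 32.4 RPKM, other prospore membrane genes 33.4, spindle pole body genes 47.5 and SNARE genes 287.0.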

How the data were processed

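RNA was extracted from sorted spores, and 100 ng entered each library. Alignment of the read pairs was done by the authors with STAR 2.7.3a on the S288C genome (R64-1-1), extended by mCherry and hph, followed by featureCounts. What was deposited are estimated counts without normalization. Treatment of strand, overlaps, multi-mapping reads and PCR duplicates is not given in the sources used here, so intervals and floors cover counting error only. SK1 reads were placed on another strain's genome. Coordinates, coding lengths and sequences are from RefSeq's R64 (annotation R64-5-1), which matched 6047 of 7132 features.

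Estimated counts were rounded to whole numbers and tested with edgeR 4.0.16 in R 4.3.3. The fit used filterByExpr, TMM and a generalized linear model (terms: replicate number, spore color), tested with the likelihood ratio test, a Benjamini-Hochberg FDR of 0.05 over 6140 genes and a prior count of 0.125. The planned design had assumed whole counts. The replicate number pairs libraries because the study repeated sporulation and sorting for each replicate, and same-numbered libraries deviated together (r = 0.407 across 6140 genes, which are not independent). Normalized CPM and RPKM were computed from unrounded values and TMM-scaled totals. RPKM percentiles are among 5786 coding genes. Alternatives included DESeq2 1.42.0. The script was tested on simulated data. These varied less between libraries than the real counts, so that test gives no error rate for the comparisons made here. P-values rest on 2 libraries per group.

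The members and lists were chosen with earlier results of these data known. Named genes are all 10 members and, from the lists, genes past the FDR, the highest and lowest in level, and the counterparts CNM67, YSW1, SEC9, PFS1, NUD1 and SPC72. SPO11, SPO13, SPO14, SPS100 and SSO1 were named after their values were seen. The sequence around the motif of DON1 is not reported here.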

Additional observations from a re-analysis of the deposited data

Results flagged for a closer look

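The ratio of a over α spores pointed in opposite directions in the runs for 4 of the 10 transcripts, with 1 library per spore type and run, so the difference between runs was not tested. The log2 ratio was 0.70 in run 2 and -0.18 in run 1 for SPO21. It was 0.39 and -1.34 for SPO74. For SMA2 it was -0.51 and 0.55, and for SPO20 -1.02 and 0.74. SPO74 was also flagged in the comparison of run 2 with run 1, at 0.01 in a spores and -1.73 in α spores on the log2 scale. That flag restates the discrepancy above, since both come from the same 4 values.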

How the results depend on the processing

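Between a and α spores, 0 of the 10 transcripts passed the FDR under all 11 alternatives, while the count over all genes was 1 in the main test and 222 in DESeq2. Removing the replicate block changed no call between a and α spores and turned SPO20 to a log2 fold change of 0.22. Leaving out 1 library at a time, in fits without the second factor, gave log2 fold changes of a over α spores from -1.01 to 1.34 for SPO21, -1.34 to 0.39 for SPO74, -0.78 to 1.97 for ADY3, -0.75 to 0.74 for SMA2 and -1.28 to 0.94 for SPO20. For SSP1 they ran from -9.04 to 9.85, values that depend on the prior count. Between runs, 3 transcripts passed, against 1 in the quasi-likelihood test with or without the block, 6 in DESeq2, 4 without the block and between 1 and 4 with a library left out. The run change of ADY4 ranged from -0.27 to 0.03. Over all genes, 1604 were called between runs, against 2706 in DESeq2 and 833 without α spores of run 1. RLE normalization and both filters left the number called at 3. The 3 of the main test include SSP1, which passed its filter through run 2 alone. With at least 10 reads in every library SSP1 was not tested, and SPO20 passed (FDR = 0.0311, edgeR). Mean RPKM moved by less than 1 SD in all 60 alternatives. Leaving out 1 of 4 libraries cannot move a mean further than that, so for those alternatives this is no check. Depth limits SSP1 in run 1, where 3 reads correspond to 0.0834 CPM in a spores and 0.0680 CPM in α spores.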
